A study of Homo sapiens with 3 samples.

Results

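Of the 13003 Fra-2 peaks called in MDA-MB-231 cells, 525 (4.04%, 3.71 to 4.39) were narrow, overlapped a Fra-1 peak, lay far from any gene start and held a single AP-1 element. They were chosen by these rules from the deposited peak positions and the reference sequence: chromosomes 1 to 22, under 300 bp wide, at least 1 bp shared with a Fra-1 peak, over 100 kb from every protein-coding transcription start site (TSS) and over 1 kb from every TSS of a long non-coding RNA (lncRNA). Within 100 bp of the centre each held exactly 1 copy of the 7 bp consensus TGAGTCA, which reads TGACTCA on the other strand, and no copy of the 6 bp TEAD core CATTCC on either strand. Peaks within 1 Mb of a run of at least 1 Mb of undetermined bases were dropped. Distances ran from the peak centre to GENCODE transcripts on GRCh37, the assembly behind hg19. These regions are called desert regions below.

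MDA-MB-231 is an established human breast cancer line labelled triple-negative and basal B, grown here in medium with 10% serum. Chromatin immunoprecipitation with sequencing (ChIP-seq) used an antibody to Fra-1 or to Fra-2, and another sample was input DNA without antibody. No group was treated, and the labels mention 2 independent replicates of each. Each antibody has a single list of peak positions without heights, and input DNA was not used here. No value therefore has a spread between replicates, and peak width is the only measure of size. Intervals are 95% exact binomial (Clopper-Pearson). They and the Fisher exact tests cover counting error only and treat peaks as independent.

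Fra-1 and Fra-2 (genes FOSL1 and FOSL2) are Fos proteins that lack the strong activation domain of c-Fos and bind DNA as dimers with a Jun protein. The dimer grips the AP-1 element, a near-palindrome around a central base pair, through the basic regions of its leucine zippers, and the bases just outside the element also touch the protein. In basal-like breast cancer cells most AP-1 sites are distal, many in enhancers that share TEAD sites. The desert regions set that partner aside by their definition, so each offers a single consensus element far from a gene start.

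The sequences below are examples of such regions, with the element in capitals in the middle of each stretch and every sequence turned to read TGAGTCA. Whether they lie in sequence repeated elsewhere in the genome was not examined. The coordinates are those of the printed stretch on hg19 and the sign is its strand. The first 5 are those with the largest summed width among the named regions, and the last 4 are among those farthest from a protein-coding TSS.

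chr3:72388423-72388483 (-), 107 kb from RYBP: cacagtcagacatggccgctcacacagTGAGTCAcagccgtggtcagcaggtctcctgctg
chr11:37525843-37525903 (-), 894 kb from IFTAP: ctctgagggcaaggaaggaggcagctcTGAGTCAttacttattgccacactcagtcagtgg
chr13:80611850-80611910 (+), 302 kb from SPRY2: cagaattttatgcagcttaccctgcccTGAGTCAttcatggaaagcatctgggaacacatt
chr9:118135734-118135794 (+), 255 kb from TNC: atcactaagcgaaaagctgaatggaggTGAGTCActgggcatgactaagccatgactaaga
chr20:49977084-49977144 (-), 182 kb from NFATC2: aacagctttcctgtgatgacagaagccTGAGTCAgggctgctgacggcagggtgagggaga
chr4:180147840-180147900 (-), 1784 kb from AGA: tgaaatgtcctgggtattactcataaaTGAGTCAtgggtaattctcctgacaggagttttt
chr1:106027903-106027963 (+), 1571 kb from PRMT6: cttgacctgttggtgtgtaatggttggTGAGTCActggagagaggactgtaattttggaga
chr11:38190965-38191025 (-), 1559 kb from IFTAP: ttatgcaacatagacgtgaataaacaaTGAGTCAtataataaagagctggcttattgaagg
chr1:106087251-106087311 (-), 1512 kb from PRMT6: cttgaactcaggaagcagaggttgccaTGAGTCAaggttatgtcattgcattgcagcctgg

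Among narrow shared desert peaks, those with exactly 1 element were the most numerous, at a share below that of all Fra-2 peaks. After removal of peaks near long runs of undetermined bases, 6880 Fra-2 peaks overlapped a Fra-1 peak, of which 5357 were under 300 bp wide and 1396 also met both distance limits. The rule required this overlap, which 61.6% of all Fra-2 peaks had. Of the 1396, 495 had no consensus element near the centre, 682 (48.9%) had exactly 1 and 219 had 2 or more. A TEAD core stood beside the single element in 157 regions, which left the 525. Over all 12695 Fra-2 peaks on chromosomes 1 to 22, 56.2% held exactly 1 element, 68.5% at least 1 and 22.7% a TEAD core within the same window.

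The limits cut through runs of similar peaks. The region nearest to 100 kb, on chromosome 12 from 88636001 to 88636251, lay 100.04 kb from TMTC3 and was 250 bp wide in both lists. The nearest peak left out, on chromosome 15 from 71739701 to 71739801, lay 99.8 kb from THSD4 and was 100 bp wide in both. At the lncRNA limit, a region on chromosome 16 from 29276751 to 29276901 at 1.026 kb was kept and a peak on chromosome 15 from 95562251 to 95562401 at 0.983 kb was not, each 150 bp wide in both lists. A width of 250 bp was found in 143 regions, and 58 peaks of 300 bp met the other rules. The element of a region lay up to 96 bp from the centre, and the nearest element beyond the window lay at 98 bp.

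The rule required the peaks of both factors to overlap and the Fra-2 peak to be narrow, so the closeness of their centres is a description. The Fra-1 and Fra-2 peaks of a desert region had centres a median of 25 bp apart (quartiles 0 and 25 bp, highest 125 bp), on files with a grid of 50 bp. In 224 regions (42.7%, 38.4 to 47.0) the centres coincided, and in 167 (31.8%, 27.8 to 36.0) start and end were the same in both lists. No region overlapped more than 1 Fra-1 peak, which for 525 regions allows a share of up to 0.700%. The part common to both peaks had a median of 150 bp and was never under 50 bp.

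Widths differed between the lists from region to region. Fra-2 widths were 100 bp in 91 regions, 150 bp in 115, 200 bp in 176 and 250 bp in 143. Fra-1 widths, which the rule did not limit, were 100 bp in 128 regions, 150 bp in 137, 200 bp in 141, 250 bp in 85 and 300 bp or more in 34, up to 400 bp. The Fra-2 peak was the wider in 197 regions (37.5%), the Fra-1 peak in 141 (26.9%), and widths were equal in 187 (35.6%). Because the rule capped only the Fra-2 width, this balance between the lists carries no test.

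**Figure D1:**
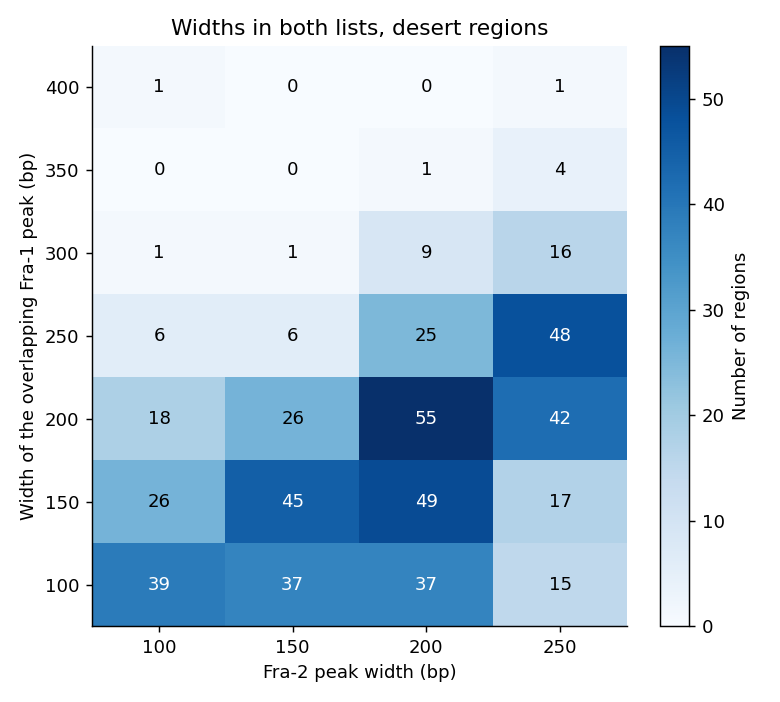
Number of desert regions at each pair of widths, with the Fra-2 peak width (bp) on the horizontal and the width of the overlapping Fra-1 peak (bp) on the vertical axis, darker cells holding more regions. The fullest cell is 200 bp in both lists with 55 regions; 39 regions are 100 bp wide in both, and 34 have a Fra-1 peak of at least 300 bp.

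The widest region, on chromosome 3, had a Fra-2 width of 250 bp (72388251 to 72388501) and a Fra-1 width of 400 bp (72388151 to 72388551). It was intergenic between PROK2 and RYBP, which encodes a Polycomb-associated protein. Its element lay 77 bp from the Fra-2 centre. Another 4 regions had a Fra-1 width of 350 bp over a Fra-2 width of 250 bp: those on chromosomes 9, 11, 13 and 20 printed above. The region on chromosome 13 lay in an intron of the lncRNA ENSG00000284196 on the side of SPRY2, an inhibitor of receptor tyrosine kinase signalling. The one on chromosome 9 was centred in an intron of the lncRNA ENSG00000228714, between TNC, which encodes the matrix protein tenascin-C, and PAPPA. The next summed width was shared by 16 regions of 250 bp (Fra-2) and 300 bp (Fra-1) and 1 of 200 and 350 bp. Of these the 5 farthest from a protein-coding TSS outside chromosome 8 lay on chromosomes 3, 4, 6, 7 and 9, and the one on chromosome 7, from 41068751 to 41069001, was nearest to INHBA (671 kb), which encodes an activin subunit.

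The most remote regions shown above were narrower. On chromosome 4, 1784 kb from AGA, the Fra-2 width was 200 bp and the Fra-1 width 150 bp. On chromosome 11, 1559 kb from IFTAP, both widths were 150 bp. The pair on chromosome 1 nearest to PRMT6 lay 59.4 kb from each other, each 100 bp wide for Fra-2, with Fra-1 widths of 150 and 200 bp. These 4 were intergenic, and the next Fra-2 peak lay between 59.4 and 1366 kb away.

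The element sat near the middle of both peaks, although the rule allowed it anywhere within 100 bp. Its middle base lay a median of 21 bp from the Fra-2 centre (quartiles 9 and 36 bp) and 23 bp from the Fra-1 centre (10 and 41 bp). It was within 25 bp of the Fra-2 centre in 295 regions (56.2%, 51.8 to 60.5). It lay to the left of that centre in 262 regions, to the right in 259 and on it in 4. Narrow and wide peaks were much alike in this: the median distance was 24 bp at a Fra-2 width of 100 bp, 20 bp at 150 bp and 21 bp at both 200 and 250 bp.

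**Figure D2:**
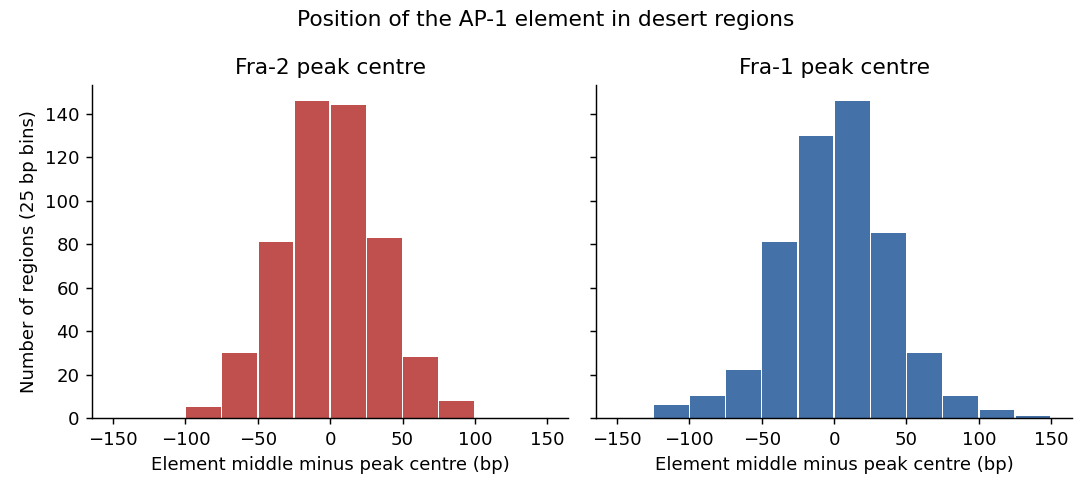
Position of the AP-1 element in the 525 desert regions, as the distance (bp) of its middle base from the Fra-2 centre (left) and the Fra-1 centre (right), in bins of 25 bp, with the number of regions as bar height. Both histograms peak at the centre; the median absolute distance is 21 bp for Fra-2 and 23 bp for Fra-1.

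Nearly all elements were inside the called intervals, in part because of the rule. An element within 100 bp of the centre has to lie inside a Fra-2 peak at least 200 bp wide, as in 319 regions (60.8%). For those regions its place inside the Fra-2 peak was fixed by the rule, so the shares are a description. Of the 525 elements, 489 (93.1%, 90.6 to 95.2) lay wholly inside both peaks, 16 in the Fra-2 peak only, 11 in the Fra-1 peak only and 9 in neither. The share centred within 25 bp did not pass the test against either counterpart. It was 61.0% (58.5 to 63.4) in the 1530 otherwise identical shared peaks with a protein-coding TSS between 1 and 100 kb away (odds ratio 0.821, 0.668 to 1.01, adjusted p = 0.204 by Fisher's exact test in a family of 47). It was 56.8% (52.0 to 61.4) in the 444 desert peaks that met the same rules but overlapped no Fra-1 peak (odds ratio 0.977, 0.751 to 1.27, Fisher exact test, adjusted p = 1). The first class is called near-gene regions below and the second Fra-2-only desert peaks.

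The bases beside the element were far from even. On the TGAGTCA strand, the base before it was A in 207 regions (39.4%), G in 161 (30.7%), C in 120 (22.9%) and T in 37 (7.05%). The base after it mirrored this, with T in 223 (42.5%), C in 169 (32.2%), G in 105 and A in 28 (5.33%). Further out the composition was flatter: at the second base before the element G stood at 29.3% and C at 15.05%. A purine before together with a pyrimidine after, here called favourable on both sides, was found in 264 regions (50.3%, 45.9 to 54.6), on 1 side in 232 (44.2%) and on neither in 29 (5.52%, 3.73 to 7.84). The word favourable is only a label for these bases, and binding strength was not measured.

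These 9-base forms, with the element in capitals, show the spread of flanks among desert regions. The first 4 were the commonest, and the last 3 the rarest.

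Commonest, 77 regions: aTGAGTCAt
Next, 72 regions: aTGAGTCAc
Then, 63 regions: cTGAGTCAt
Level with it, 63 regions: gTGAGTCAt
Among the rarest, 5 regions: tTGAGTCAa
Rarer still, 3 regions: tTGAGTCAg
Rarest, 2 regions: cTGAGTCAa

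Most elements of the same deserts were in no peak, and their flanks were nearly even. The deserts spanned 983 Mb and held 136153 copies of the element with no second copy and no TEAD core within 100 bp, called isolated copies. Of the 134829 isolated copies in neither list, 21.7% were favourable on both sides, 51.1% on 1 side and 27.2% on neither, given here without a test. A T before or an A after stood at 47.9% of them and at 60 desert regions (11.4%, 8.84 to 14.5). The form gTGAGTCAa was the commonest among them at 9.62%, and 7 desert regions (1.33%) had it. Copies in sequence repeated elsewhere in the genome were not set apart, here or in later counts of isolated copies. How well reads map to such copies was not examined.

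Read from the copies, the flank split how often an isolated desert element lay inside a shared peak of any width. Of all isolated copies, 741 (0.544%) did. The share was 1.23% (1.11 to 1.37) with both sides favourable, 0.456% (0.408 to 0.509) with 1 side and 0.147% (0.111 to 0.192) with neither. With T before or A after it was 0.141% (0.113 to 0.173). Fra-2-only peaks were split by flank as well: they held 0.964% (0.857 to 1.08), 0.176% (0.146 to 0.210) and 0.0354% (0.0189 to 0.0605) of copies with both sides, 1 side and neither side favourable. The flanking sequence was not part of the rule, while presence in a peak was, so these shares are a description.

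**Figure D3:**
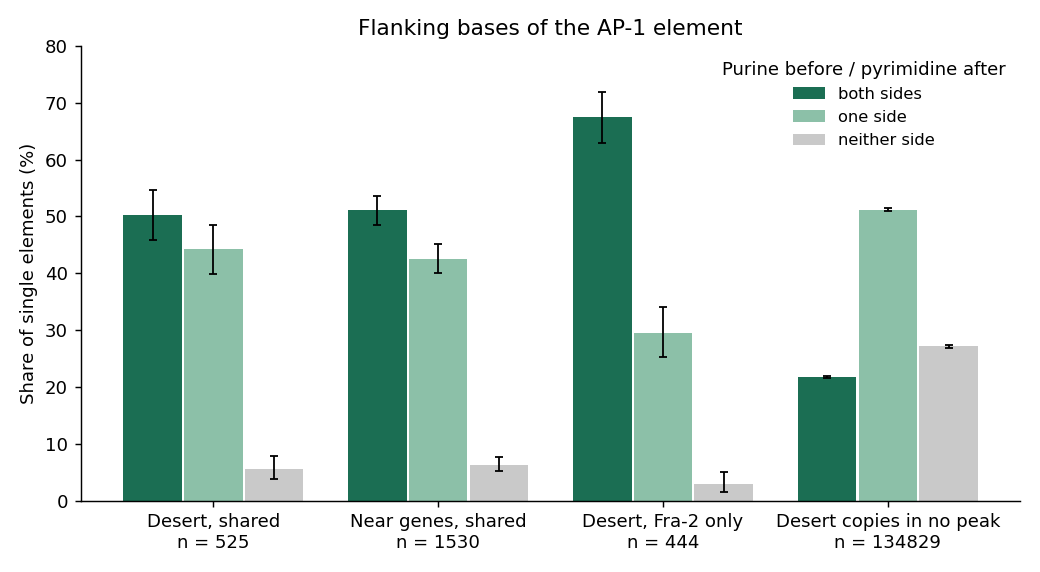
Share (%) of single AP-1 elements with a purine before and a pyrimidine after on both sides, on 1 side or on neither, in desert regions, near-gene regions, Fra-2-only desert peaks and isolated desert copies in no peak, with 95% exact binomial intervals as error bars. Both sides were favourable in 50.3%, 51.1%, 67.6% and 21.7%.

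Fra-2-only peaks of the same deserts had the more favourable flanks. Both sides were favourable in 300 of 444 (67.6%, 63.0 to 71.9) against 50.3% of desert regions (odds ratio 0.486, 0.370 to 0.636, Fisher exact test, adjusted p = 8.63e-07). The form aTGAGTCAt alone was in 109 of them (24.5%, 20.6 to 28.8) and in 14.7% (11.8 to 18.0) of desert regions (odds ratio 0.529, 0.376 to 0.740, Fisher exact test, adjusted p = 0.00108). The latter call was lost among Fra-2 peaks 200 or 250 bp wide (15.7% against 26.2%) and in windows of at least 45% GC (9.92% against 18.4%), both splits chosen after the data were seen.

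Shares of favourable flanks rose with peak width among Fra-2-only desert peaks and varied less among desert regions. Among Fra-2-only desert peaks, both sides were favourable in 60.0% (52.8 to 66.9) of 195 peaks 100 bp wide, 65.8% of 146 at 150 bp, 81.8% of 66 at 200 bp and 89.2% (74.6 to 96.97) of 37 at 250 bp. Among desert regions the shares were 43.96% (33.6 to 54.8) of 91, 49.6% of 115, 52.8% of 176 and 51.7% (43.2 to 60.2) of 143. The gap between the classes was 15.4 percentage points at 100 and 150 bp (adjusted p = 0.00600, Fisher exact test) and 32.1 points at 200 and 250 bp (adjusted p = 9.50e-08, Fisher exact test). These width classes were chosen after the data were seen, and whether the gap itself differed with width was not tested.

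Neither of the tested flank classes passed against near-gene regions. Near-gene regions were favourable on both sides in 782 of 1530 (51.1%, 48.6 to 53.6), against which desert regions had an odds ratio of 0.968 (0.790 to 1.19, Fisher exact test, adjusted p = 1). The form aTGAGTCAt was in 14.6% of near-gene and 14.7% of desert regions (odds ratio 1.01, 0.750 to 1.34, Fisher exact test, adjusted p = 1). A T before or an A after stood at 128 near-gene regions (8.37%, 7.03 to 9.87) and at 11.4% (8.84 to 14.5) of desert regions, and a T after at 37.5% and 42.5%. These differences were not tested.

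Near-copies of the element were frequent beside it. A 7-base word at 1 mismatch from the consensus lay in the window of 361 desert regions (68.8%, 64.6 to 72.7), with 1 such word in 198 regions and 2 or more in 163, up to 6. Over all 12695 Fra-2 windows the share was 60.2%. The commonest was TGAATCA, on either strand, in 78 regions (14.9%). It was followed by TGACTAA in 68 regions (12.95%) and TGAGTAA in 51 (9.71%). Such a word is a match of letters and was not tested for binding.

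Near-copies were less frequent in Fra-2-only desert peaks, though the shares were close at a Fra-2 width of 100 bp. They stood in 240 of the 444 (54.1%, 49.3 to 58.8; odds ratio 1.87, 1.43 to 2.45, Fisher exact test, adjusted p = 3.74e-05). The call was lost among Fra-2 peaks 200 or 250 bp wide (69.0% against 58.3%) and in windows of at least 45% GC (64.3% against 54.8%). By Fra-2 width, the shares in desert regions and Fra-2-only desert peaks were 61.5% and 60.5% at 100 bp, 73.9% and 42.5% at 150 bp, 65.9% and 59.1% at 200 bp and 72.7% and 56.8% at 250 bp. TGACTAA and TGAGTAA were each in 4.5% of Fra-2-only desert peaks. Near-gene regions had a near-copy in 66.9% (odds ratio 1.09, 0.875 to 1.36, Fisher exact test, adjusted p = 0.755).

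Among isolated desert copies, 0.864% (0.790 to 0.943) of those with a near-copy within 100 bp lay in a shared peak and 0.311% (0.273 to 0.353) of those without. For Fra-2-only peaks the shares were 0.394% and 0.251%. Copies favourable on both sides, in windows of at least 45% GC and with a near-copy lay in a shared peak in 103 of 3500 cases (2.94%, 2.41 to 3.56). Copies favourable on neither side, under 45% GC and without a near-copy did so in 6 of 16087 (0.0373%, 0.0137 to 0.0812). Fra-2-only peaks held 75 of the same 3500 copies (2.14%, 1.69 to 2.68) and 0 of the 16087 (up to 0.0229%), so this contrast was not particular to shared peaks.

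Desert regions were less rich in G and C than their near-gene counterparts. The median GC content of the window was 44.8% (quartiles 40.3 and 49.3%), against 48.3% near genes and 45.5% in Fra-2-only desert peaks. At least 45% GC was reached by 252 desert regions (48.0%, 43.7 to 52.4) and 1002 near-gene regions (65.5%, 63.0 to 67.9; odds ratio 0.487, 0.396 to 0.598, Fisher exact test, adjusted p = 4.97e-11). Fra-2-only desert peaks did not pass the test (53.8%, 49.1 to 58.5; odds ratio 0.792, 0.610 to 1.03, Fisher exact test, adjusted p = 0.240).

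Of 15 further motifs, 1 passed the test against near-gene regions. The E-box CAGGTG, bound by ZEB, SNAIL and other E-box proteins, was in 43 desert regions (8.19%, 5.99 to 10.9) and in 220 near-gene regions (14.4%, 12.7 to 16.2; odds ratio 0.531, 0.368 to 0.753, Fisher exact test, adjusted p = 0.00152). The call was lost in both GC classes, with a difference of -3.19 percentage points under 45% GC and -5.86 at 45% or more, and among Fra-2 peaks of at least 150 bp (-4.62) or of 200 or 250 bp (-3.17). Over all Fra-2 windows 12.04% held this E-box.

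Against near-gene regions 3 of the 15 motifs had an unadjusted p under 0.05, the E-box, the SOX site and the CCAAT box, of which the last pair missed the adjusted threshold. The RUNX core TGTGGT, a frequent neighbour of AP-1 elements, was in 103 desert regions (19.6%, 16.3 to 23.3) and 18.8% of near-gene regions (odds ratio 1.06, 0.814 to 1.37, Fisher exact test, adjusted p = 0.988). The GATA site AGATAA was in 11.2% against 8.37% (odds ratio 1.39, 0.983 to 1.94, Fisher exact test, adjusted p = 0.204), the SOX site AACAAT in 15.05% against 11.05% (odds ratio 1.43, 1.05 to 1.92, Fisher exact test, adjusted p = 0.0916) and the CCAAT box in 26.3% against 21.3% (odds ratio 1.32, 1.04 to 1.67, Fisher exact test, adjusted p = 0.0916). The SOX call was made over 200 kb from a TSS, against shared peaks at 1 to 200 kb (8.02 percentage points more). It was also made in windows of 150 bp to each side (5.52) and over 10 kb from a lncRNA TSS (4.88). Within GC classes the gap was 2.68 points under 45% GC and 1.25 at 45% or more, with no call. Over all Fra-2 windows 17.4% held the RUNX core, 8.31% the GATA site, 9.68% the SOX site and 23.8% the CCAAT box. Each motif was sought on both strands, whatever it overlapped. The other 10 did not pass against near-gene regions: the ETS core CCGGAA (2.67% of desert regions), the forkhead site TGTTTAC (6.10%), the steroid receptor site AGAACA (15.4%), the SP site GGGCGG (4.0%), the POU octamer ATGCAAAT (2.10%), the STAT site TTCCNGGAA (0.762%), and the IRF (2.10%), NF-kB (1 region), C/EBP TTGCGCAA (0 regions) and CRE TGACGTCA (0 regions) motifs. Over all Fra-2 windows these stood, in that order, at 3.37%, 4.44%, 12.6%, 5.51%, 1.19%, 0.796%, 3.24%, 0.150%, 0.0945% and 0.402%.

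Against Fra-2-only desert peaks none of the 15 motifs passed, at an adjusted or an unadjusted p of 0.05 in the Fisher exact test. RUNX was in 16.7% of those peaks (odds ratio 1.22, 0.867 to 1.72), GATA in 7.88% (1.48, 0.936 to 2.37), SOX in 12.6% (1.23, 0.836 to 1.81), the E-box in 10.1% (0.791, 0.497 to 1.26) and the CCAAT box in 27.03% (0.963, 0.716 to 1.30).

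Fra-1 peaks over desert regions were somewhat wider than over near-gene regions. A Fra-1 width of at least 200 bp was found in 260 desert (49.5%, 45.2 to 53.9) and 646 near-gene regions (42.2%, 39.7 to 44.7; odds ratio 1.34, 1.09 to 1.65, Fisher exact test, adjusted p = 0.0225). The Fra-1 peak was wider than the Fra-2 peak in 26.9% (23.1 to 30.9) of desert and 20.4% (18.4 to 22.5) of near-gene regions (odds ratio 1.43, 1.13 to 1.81, Fisher exact test, adjusted p = 0.0162). Within GC classes, the gap in wide Fra-1 peaks was 2.01 percentage points in windows under 45% GC and 8.70 at 45% or more. Neither passed, and a link between GC content and Fra-1 width was not tested. The first call was lost under 11 of 17 other settings and the second under 5.

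The Fra-2 peaks themselves did not pass as wider or narrower than those of near-gene regions. Of desert regions 60.8% (56.4 to 64.96) and of near-gene regions 61.4% (58.9 to 63.8) had a Fra-2 width of at least 200 bp (odds ratio 0.975, 0.792 to 1.20, Fisher exact test, adjusted p = 1). The same start and end in both lists was found in 31.8% and 32.7% (odds ratio 0.961, 0.772 to 1.19, Fisher exact test, adjusted p = 1). Of the 444 Fra-2-only desert peaks, 103 (23.2%, 19.3 to 27.4) were 200 bp or wider. That share is given as a description, since the classes were split by overlap with a Fra-1 peak, and the rule capped the width. A wider interval meets a Fra-1 peak more readily. The Fisher exact test of this pair was among the 47 of the adjustment, but its result is not used here.

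Farther from genes, fewer elements lay in peaks. Among isolated copies, the share in a shared peak was 1.28% (1.15 to 1.42) at 1 to 5 kb from a protein-coding TSS, 0.887% (0.809 to 0.972) at 50 to 100 kb, 0.745% (0.670 to 0.826) at 100 to 200 kb, 0.561% at 200 to 500 kb, 0.291% at 500 to 1000 kb and 0.145% (0.0814 to 0.240) beyond. In Fra-2-only peaks it ran from 1.44% to 0.0970% over the same range. Shared peaks thus held 46.9% of the isolated copies in Fra-2 peaks at 1 to 5 kb and 62.3% at 100 to 200 kb. These shares are a description, since distance and overlap were both in the rule.

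**Figure D4:**
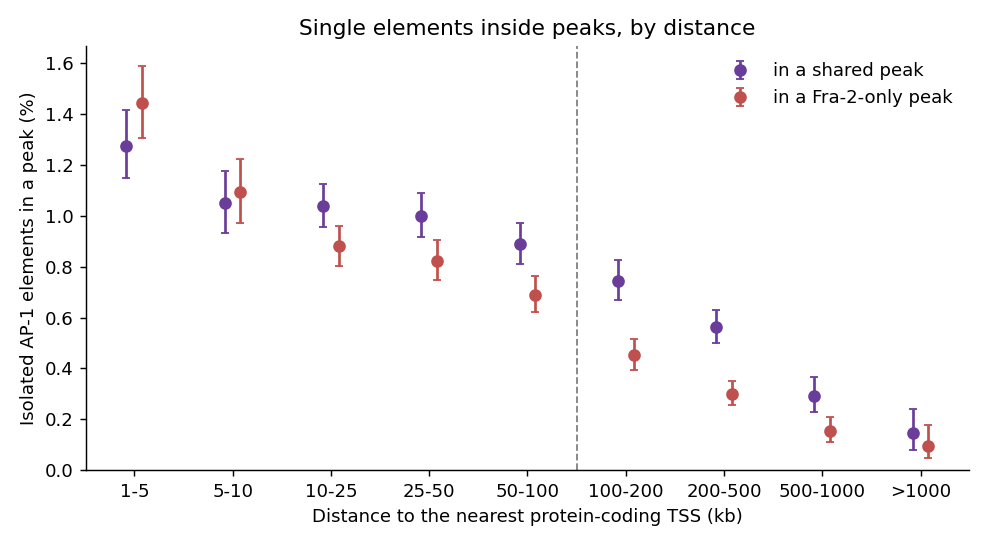
Share (%) of isolated AP-1 elements that lay in a shared peak (purple) or a Fra-2-only peak (red), by distance to the nearest protein-coding TSS (kb), with 95% exact binomial intervals; the dashed line marks the 100 kb limit. The shared series runs from 1.28% to 0.145% and the Fra-2-only series from 1.44% to 0.0970%.

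GC content was lower along the same axis, and the order by distance was also seen within each GC class. Windows of at least 45% GC made up 40.2% of isolated copies at 1 to 100 kb and 15.4% beyond 500 kb. In such windows the share in a shared peak was 1.71% (1.63 to 1.80) at 1 to 100 kb, 1.41% at 100 to 200 kb, 1.24% at 200 to 500 kb and 0.510% (0.339 to 0.736) beyond. Under 45% GC it was 0.561% (0.521 to 0.604), 0.462%, 0.357% and 0.202% (0.154 to 0.259).

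Most desert regions were the only one, or one of a pair, between their neighbouring genes. Desert regions lay a median of 214 kb from a protein-coding TSS (quartiles 137 and 363 kb), with 71 beyond 500 kb and 14 beyond 1000 kb. They fell into 363 stretches between neighbouring protein-coding TSS, of which 258 held 1 region, 71 held 2, 29 held 3 or 4 and 5 held 5 or more. Some stretches, picked out after the values were seen, were crowded with peaks. On chromosome 16, 3 regions lay in 617 kb with 53 Fra-2 and 54 Fra-1 peaks. On chromosome 2, 1 region lay in 255 kb with 58 Fra-2 and 68 Fra-1 peaks. Another Fra-2 peak lay within 12.5 kb of 192 regions (36.6%, 32.4 to 40.9), while 135 (25.7%) had none within 100 kb, and 43 had another desert region within 12.5 kb.

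Such neighbours were more frequent than around Fra-2-only desert peaks, at 26.1% (22.1 to 30.5; odds ratio 1.63, 1.23 to 2.17, Fisher exact test, adjusted p = 0.00358). The call was lost under 6 other settings, among them both width classes (29.6% against 23.5% at 100 or 150 bp and 41.1% against 35.0% at 200 or 250 bp). Near-gene regions had a neighbour in 40.6% (odds ratio 0.844, 0.683 to 1.04, Fisher exact test, adjusted p = 0.301). With the TSS limit at 200 kb, the share was lower in desert regions than in shared peaks at 1 to 200 kb (31.9% against 40.8%, Fisher exact test, adjusted p = 0.0243). The latter class then took in the desert regions at 100 to 200 kb.

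The fullest stretches outside chromosome 8, where 2 of the 5 lay, were on chromosomes 10, 9 and 4. Between RPS24, a ribosomal protein gene, and ZMIZ1, a transcriptional coregulator, 5 desert regions were centred from 80218051 to 80724951 on chromosome 10 in 1033 kb with 15 Fra-2 and 12 Fra-1 peaks and 130 isolated copies. Their widths were 150 to 200 bp for Fra-2 and 100 to 200 bp for Fra-1. Between KLF4, a zinc finger transcription factor, and ACTL7B on chromosome 9, 5 lay among 12 Fra-2 and 8 Fra-1 peaks and 204 copies in 1366 kb. The stretch between AGA and TENM3 on chromosome 4 was 4702 kb long, and 5 of its 8 Fra-2 peaks were desert regions, at 627 copies.

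The shortest stretches with 4 regions outside chromosome 8 were on chromosomes 17 and 2. In the 533 kb from PRKCA to CACNG5 on chromosome 17, 4 desert regions lay among 13 Fra-2 peaks and 61 copies. In the 609 kb between CDCA7 and SP3 on chromosome 2, all 4 Fra-2 peaks were desert regions, centred from 174455201 to 174523276, with widths of 200 to 250 bp for Fra-2 and 100 to 250 bp for Fra-1.

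Intergenic regions and regions in introns were about equally frequent. Of the 525, 264 (50.3%, 45.9 to 54.6) were in no protein-coding or lncRNA gene, 139 (26.5%) in lncRNA introns, 111 (21.1%) in protein-coding introns, 7 in lncRNA exons and 4 in protein-coding exons. Isolated desert copies were spread much alike, with 52.6% in neither kind of gene, 25.7% in lncRNA genes only and 21.7% in protein-coding genes. Copies in lncRNA genes lay in a shared peak in 0.643% (0.562 to 0.733) of cases, those in protein-coding genes in 0.527% (0.448 to 0.617) and the others in 0.503% (0.452 to 0.557).

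Some long genes held several regions. CAMTA1 on chromosome 1, which encodes a calmodulin-binding transcription activator and is 984 kb long, held 4: from 7325901 (150 bp in both lists), 7359451 (250 bp in both), 7361051 (100 bp for Fra-2, 300 bp for Fra-1) and 7609451 (200 and 100 bp). PRKCA on chromosome 17, the gene of protein kinase C alpha, held 4 from 64490151 to 64657751, with Fra-2 widths of 150 to 200 bp and Fra-1 widths of 100 to 150 bp. These 4 are the same regions as those of the stretch from PRKCA to CACNG5 above. KCNMA1, a potassium channel gene, and LRMDA, both on chromosome 10, held 3 each. The lncRNA genes LINC00511 on chromosome 17, LINC00882 on chromosome 3, ENSG00000248515 on chromosome 4 and ENSG00000286536 on chromosome 9 also held 3 each.

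The nearest protein-coding gene was a different one for most regions. The 525 had 390 distinct nearest genes, and 291 of these were nearest to 1 region only. Outside chromosome 8, SOX9 was nearest to 6 regions and no gene to more. This gene, an HMG-box transcription factor known for its regulation by distant enhancers, was picked out after the values were seen. Those regions lay 124, 220, 241, 265, 268 and 682 kb away on chromosome 17, with Fra-2 widths of 200 or 250 bp and Fra-1 widths of 100 to 250 bp, and 3 of them were in LINC00511.

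Of all 18886 protein-coding genes on chromosomes 1 to 22, 368 (1.95%) were nearest to a desert region and 1278 (6.77%) to a near-gene region. Of 14 AP-1 family genes 1 was nearest to a desert region, of 15 targets of YAP/TAZ and TEAD 2, of 16 mesenchymal and matrix genes 4, of 10 invasion proteases 1, of 10 cytokines 0 and of 10 neuronal genes, which mark another cell type, 1. Near-gene regions were nearest to 4, 6, 3, 1, 2 and 0 of the same genes. Desert regions of chromosome 8 were left out of these counts, and near-gene regions of it were not. These counts depend on how far a gene's neighbours lie and were not tested.

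The regions nearest to such genes are shown with their elements. FOSL2, which encodes Fra-2, had 1 in an intron of its neighbour BABAM2, 118 kb from the FOSL2 TSS, and both peaks spanned 28497801 to 28498051 on chromosome 2. Its element lay 3 bp from the centre. ADAM12, a metalloprotease gene, held 1 in its own intron at 161 kb, 200 bp wide in both lists. FN1, the fibronectin gene, had 1 at 222 kb in the lncRNA LINC00607, 200 bp wide for Fra-2 and 100 bp for Fra-1. CDH2, the N-cadherin gene, had 1 at 150.99 kb, 200 bp wide for Fra-2 and 250 bp for Fra-1.

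chr2:28497899-28497959 (-), nearest FOSL2: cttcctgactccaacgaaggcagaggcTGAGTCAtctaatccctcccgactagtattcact
chr10:127916427-127916487 (+), nearest ADAM12: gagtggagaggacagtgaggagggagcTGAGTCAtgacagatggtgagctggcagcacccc
chr2:216522779-216522839 (-), nearest FN1: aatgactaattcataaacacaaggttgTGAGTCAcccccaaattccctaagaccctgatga
chr18:25419287-25419347 (+), nearest CDH2: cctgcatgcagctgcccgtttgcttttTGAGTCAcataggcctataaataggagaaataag

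Other listed genes had 1 or 2. TNC had 2 regions, at 255 and 498 kb, with Fra-2 widths of 250 and 150 bp and Fra-1 widths of 350 and 250 bp. TGFB2, a TGF-beta ligand, had 2, at 135 and 313 kb, and THBS1, the thrombospondin-1 gene, 2 at 409 and 453 kb. F3, the tissue factor gene, had 1 at 107 kb that was 100 bp wide for Fra-2 and 200 bp for Fra-1. CADM2, a neuronal adhesion gene, had 1 at 234 kb, 250 bp wide for Fra-2 and 150 bp for Fra-1, with no other Fra-2 peak within 2250 kb.

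Chromosomes differed in how many of their desert elements were in such regions. Chromosome 3 held 54 desert regions, chromosome 1 held 51 and chromosome 2 held 49, and chromosomes 19 and 22 held 1 each. Per 1000 isolated desert copies, chromosome 17 had 9.12 (17 regions), chromosome 10 had 6.71 (44) and chromosome 15 had 6.14 (18), while chromosome 18 had 1.81 (8), chromosome 21 had 1.57 (3) and chromosome 22 had 1.13 (1). These are single values without a spread, several rest on few regions, and the copy number of this aneuploid line was not examined.

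**Figure D5:**
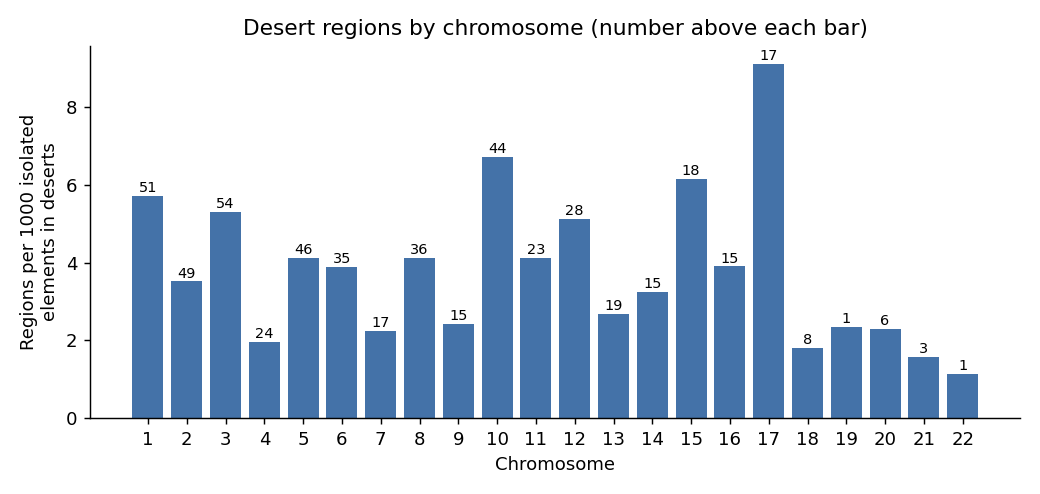
Desert regions per 1000 isolated AP-1 elements in deserts (bar height) on chromosomes 1 to 22, with the number of regions above each bar. Chromosome 17 is the highest at 9.12 with 17 regions, and chromosome 22 the lowest at 1.13 with 1.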

How the data were processed

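MDA-MB-231 cells were studied by ChIP-seq with an antibody to Fra-1 or Fra-2 and with input DNA. The deposited peak lists hold other values than counts: per the files, 3 columns with chromosome, start and end on a grid of 50 bp, without a score. Bowtie2 and hg19 are named in the submitters' processing notes without a role; for the peak caller, its threshold and the pooling of replicates the answer is: not given in the sources used here. Starts were read as 1-based and width as end minus start. No peak on chromosomes 1 to 22 passed its GRCh37 chromosome end. Depth is unknown.

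TSS came from GENCODE 44 lifted to GRCh37. Motifs were searched as exact words, with Python 3.11.15, numpy 2.4.6 and scipy 1.17.1; figures used matplotlib 3.10.9. Classes were compared by two-sided Fisher exact tests with Benjamini-Hochberg adjustment over 47 tests and a threshold of 0.05. The scripts were tested on simulated data. Members, lists and tests were chosen with earlier results of these data known. Named regions were the 10 widest in both lists together (ties by distance from a TSS), the 5 most remote, the 5 fullest stretches, those at the limits, genes holding 3 or more regions and listed genes nearest to one. Regions of chromosome 8 were counted but not named. Of the 5 most remote regions, 1 is not reported here. A planned comparison of repeat-masked sequence was not run, since the reference used marks no repeats.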

Additional observations from a re-analysis of the deposited data

How the results depend on the processing

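Values are desert regions minus the other class in percentage points. Where the TSS limit moved to 50 or 200 kb, the other classes moved with it. Near-gene regions then ran from 1 kb to that limit, and Fra-2-only desert peaks lay beyond it. The fixed list held 12 other settings and 5 were added after the data were seen (Fra-2 widths of 100 or 150 bp, of 200 or 250 bp, windows under 45% GC, of at least 45% GC, element inside the Fra-2 peak). The gap to Fra-2-only desert peaks in favourable flanks passed under all 17 settings, between -15.4 and -32.1. Under reciprocal overlap of 50%, the Fra-2-only class also held peaks that overlapped a Fra-1 peak by less than that. The number of desert regions was 827 over 50 kb and 279 over 200 kb from a TSS. Between 0 and 3 motifs passed against near-gene regions: 0 at 200 or 250 bp, at 150 bp or more and in each GC class, 2 over 200 kb, over 10 kb from a lncRNA TSS and with no upper width, and 3 with the element sought within 150 bp, where 1 passed against Fra-2-only desert peaks.

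Against near-gene regions, the call of wide Fra-1 peaks was lost at 100 or 150 bp (8.67), 200 or 250 bp (6.78), 150 bp or more (7.11), windows of 150 bp (6.43) and 75 bp (6.38), no upper width (5.28), over 10 kb from a lncRNA TSS (5.38), over 200 kb (5.80), reciprocal overlap of 50% (6.50), at least 45% GC (8.70) and under it (2.01). That of a wider Fra-1 peak was lost at 100 or 150 bp (8.77), 200 or 250 bp (4.78), 150 bp or more (5.06), at least 45% GC (4.56) and under it (4.78). A neighbouring Fra-2 peak passed over 200 kb (-8.87). Against Fra-2-only desert peaks, calls were lost for A and T flanks (-10.5 at 200 or 250 bp, -8.49 at 45% GC or more), near-copies (10.7 and 9.47 there) and neighbours (6.15 at 100 or 150 bp, 6.11 at 200 or 250 bp, 7.44 at 150 bp or more, 5.29 over 200 kb, 7.19 with reciprocal overlap, 6.26 under 45% GC). GC content passed at 100 or 150 bp (-12.1).

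Differences that missed the threshold in the main analysis changed sign as follows. Against near-gene regions they were, for wide Fra-2 peaks, 1.33 at 150 bp or more and 3.40 at 45% GC or more. For equal edges they were 1.26 at 200 or 250 bp, 0.361 at 150 bp or more and 1.94 over 50 kb. For A and T flanks they were -0.726 at 200 or 250 bp, -0.0115 at 150 bp or more, -0.0382 within 150 bp, -0.337 with no upper width, -0.117 over 10 kb from a lncRNA TSS, -0.0550 with peaks near undetermined runs kept, -0.480 with neighbours counted once, -0.459 at 45% GC or more and -3.49 under it. Near-copies gave -0.617 within 75 bp, and favourable flanks 0.894 at 100 or 150 bp and 0.825 over 200 kb. RUNX gave -0.343 at 200 or 250 bp, -0.0478 within 150 bp, -0.607 with no upper width and -1.64 over 200 kb. Against Fra-2-only desert peaks, the CCAAT box gave 5.00 at 200 or 250 bp, 1.07 at 150 bp or more, 1.12 over 50 kb and 2.23 under 45% GC, and the E-box 0.00913 at 200 or 250 bp. Centred elements gave 1.37 at 200 or 250 bp, 1.15 at 150 bp or more, 0.429 within 150 bp, 0.151 over 200 kb, 1.12 over 50 kb and 0.679 at 45% GC or more. The cause was not tested, except that subsets and stricter limits hold fewer peaks. No paired analysis was possible because each antibody has 1 peak list and no comparison rests on replicate samples.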
